A study of Mus musculus with 4 samples.

Results

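Among the 42006 different probes of these arrays, 209 gave a signal well above background from mouse footpad RNA on all 4 arrays while the reference RNA hybridised beside it gave such a signal on none of them. They were chosen by the scanner software's detection flags in both channels and by a mean footpad signal of at least 200 units, so their being bright in footpad and dim in the reference is a description of the choice. Of 27536 probes detected in footpad on all 4 arrays, 1011 were detected in the reference on none, and 209 of these reached 200 units. Among the 19467 probes with a footpad signal of that size on all arrays, 19085 were also detected in the reference on all 4 arrays and 173 on 1 to 3 arrays. A signal that is not well above background does not show that a transcript is lacking, so none of the 209 can be called absent from the reference.

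The footpads came from C57BL/6 mouse embryos at E17.5, with 2 wild-type (WT) samples given as male and 2 Tabby samples given as mixed sex, numbered 3 and 4 in each group. The labels call Tabby a gene knock out. Each footpad RNA was labelled with Cy3 and hybridised with the same Cy5-labelled reference, RNA pooled from mouse cell lines of several tissues, without a dye swap, on 4 arrays of 1 slide. The labels do not say whether a sample is 1 animal or a pool, nor whether replicates are different animals, so p-values measure only a spread between samples that may be technical. Sex and array position follow the genotype, and their effects cannot be told apart from it.

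The Tabby mutation removes ectodysplasin (Eda), a secreted ligand of the tumour necrosis factor family. Its receptor Edar acts in the epithelial buds of hair follicles, teeth and sweat glands, and mice without the ligand form no sweat glands in the footpad, which is the main sweat gland-bearing skin of the mouse. A footpad also holds epidermis, dermis, vessels, nerve endings and, at its base, muscle and tendon. A pool of cultured lines carries the RNA of dividing cells of several origins, while RNA of differentiated or rare tissue cells may be scarce in it. The files give each probe as a code and a 60-base sequence and pair no probe with a gene, so neither a cell type nor Eda could be checked, and the probes are described by sequence. In such bulk samples, fewer cells of a type and less RNA per cell cannot be told apart.

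The 4 members with the highest footpad signal are shown first because they carry the clearest values of the group. Capitals mark TTTATT, which is the poly(A) signal AATAAA read on the opposite strand.
Z00000799-1: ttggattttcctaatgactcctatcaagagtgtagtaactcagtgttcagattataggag
Z00053468-1: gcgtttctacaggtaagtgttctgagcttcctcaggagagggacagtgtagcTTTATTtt
Z00011102-1: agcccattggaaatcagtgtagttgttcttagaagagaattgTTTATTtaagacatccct
Z00025980-1: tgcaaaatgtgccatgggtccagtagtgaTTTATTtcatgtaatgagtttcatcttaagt
The next sequence is shown because it is on the array as a pair of separate probes, and these were the only members at least 1.5-fold lower in Tabby without overlap between the groups.
Z00054665-1 and Z00070655-1: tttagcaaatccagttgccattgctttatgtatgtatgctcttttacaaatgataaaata
The following 4 are shown because their signal differed between the replicates of both groups in the same direction. Capitals mark AATAAA on the given strand.
Z00071978-1: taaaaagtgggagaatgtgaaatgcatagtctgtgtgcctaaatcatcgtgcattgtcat
Z00036788-1: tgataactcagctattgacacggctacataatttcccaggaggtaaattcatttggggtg
Z00023077-1: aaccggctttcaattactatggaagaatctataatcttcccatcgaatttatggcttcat
Z00048600-1: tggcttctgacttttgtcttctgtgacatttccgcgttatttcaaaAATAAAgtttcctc

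Over the 209 members the mean footpad signal ran from 200.2 to 8273 units, with a median of 368.2 units. There were 111 members between 200 and 400 units, 63 between 400 and 1000 units and 35 at 1000 units or more. On the same arrays 4509 probes were brighter than the brightest member. The reference signal of the members lay between 3.27 and 19.5 units over all arrays, with a median of 6.88 units. For 24.9% to 40.7% of the members, depending on the array, it was a surrogate set by the scanner software and no measured signal. The lowest signal of any probe detected in the reference was 16.3 to 19.3 units, depending on the array. The reference channel was thus too dim for a ratio, and only the footpad channel is compared here. No member was saturated or carried a feature outlier flag, and 9 had an outlying local footpad background on at least 1 array. Each member was measured in 1 spot per array, so no spread between spots of a probe could be measured. The error that the scanner software estimated had a median of about 10.1% of the signal. Signals of different probes also depend on how well each probe binds, so their order is no order of transcript levels.

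Just inside the limit of 200 units were Z00012866-1, Z00025003-1 and Z00036288-1, the last with a mean of 200.2 units. Just outside it were Z00072373-1 with a mean of 199.4 units, Z00049414-1 with 198.8 units and Z00075664-1 with 198.4 units.

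Most of these probes gave a similar signal in Tabby and WT footpads. The arrays were scaled to their 75th percentile, and the fitted difference was the mean log2 signal of the 2 Tabby arrays minus that of the 2 WT arrays. Its median over the 209 members was 0.03, which is 102% of the WT signal, beside -0.0056 over all probes tested, and it was -0.01 after loess and Aquantile normalization. In 195 members (93.3%, against 98.8% of the probes also detected in the reference) the Tabby signal was between 80% and 125% of the WT signal. In 11 members it was under 80% and in 3 it was above 125%. The range was 56.3% to 154%. With limma and a Benjamini-Hochberg threshold of 0.05 over 28448 probes, no member passed in either direction. Over all probes tested 7 passed as lower (0.0246%) and 0 as higher (0%). At an unadjusted p under 0.05 there were 13 members (6.22%), against 5.37% of all probes tested, and the lowest adjusted p of any member was 0.274. The same data gave 2 members as lower when limma's variance was fitted with a trend and robustly, and 1 with loess and Aquantile normalization, both among the probes with the identical sequence described below.

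For the members, the median difference between the genotypes was below that between the arrays of a genotype, but these are unlike measures. A mean of 2 arrays varies less than a single array, so the values below do not show whether the genotypes differ more. The median absolute log2 difference of the members was 0.0956 between the genotypes, 0.107 between the WT arrays and 0.123 between the Tabby arrays, where the first compares means of 2 arrays and the others single arrays. For the probes also detected in the reference these values were 0.0486, 0.0712 and 0.0778. Between 200 and 400 units, where brightness was similar, the values between the genotypes were 0.116 for the members and 0.0634 for those probes. The values of the members were the larger throughout, and no test of this was made.

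By sum, the members held 0.0680% and 0.0656% of the footpad signal on the WT arrays and 0.0690% and 0.0642% on the Tabby arrays. The highest and the lowest share were both those of Tabby arrays. The difference of the mean log2 shares, Tabby minus WT, was -0.0041 (exact two-sided permutation test, p = 1, where 2 arrays against 2 can give no less than 0.333).

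The brightest members differed little between the genotypes. Z00000799-1 gave 7861 and 7956 units with WT RNA and 9262 and 8013 units with Tabby RNA. Z00053468-1 gave 7254 and 7760 units with WT RNA and 6752 and 7039 units with Tabby RNA. In the first both Tabby arrays lay above both WT arrays, and in the second below. Z00011102-1 gave 6356 and 6416 units with WT RNA and 6732 and 5978 units with Tabby RNA. Z00025980-1 gave 6006 and 6296 units with WT RNA and 6393 and 6229 units with Tabby RNA. In Z00011102-1 the Tabby arrays lay on either side of the WT arrays, while in Z00025980-1 the groups overlapped in signal and were just separated after scaling. One of the steadiest was Z00030280-1, with 3794 and 3666 units with WT RNA and 3777 and 3659 units with Tabby RNA. Over the 12 brightest members, Tabby kept between 92.8% and 110.6% of the WT signal. After scaling, 1 of the 12 was lower and 3 were higher in Tabby without overlap, beside 17.4% and 14.4% of all probes tested. The lowest limma adjusted p of the 12 was 0.999952.

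The lowest unadjusted p-values of the members belonged to the identical pair. Z00054665-1 gave 354.9 and 349.2 units with WT RNA and 193.2 and 214.5 units with Tabby RNA. Its copy Z00070655-1 gave 313.6 and 333.3 units with WT RNA and 199.98 and 193.3 units with Tabby RNA. On both probes every Tabby array was below every WT array. The log2 difference of Z00054665-1 was -0.78 (SE 0.0846, 95% confidence interval -0.996 to -0.555, limma adjusted p = 0.308), which is 58.4% of the WT signal. For Z00070655-1 it was -0.70 (SE 0.0719, 95% confidence interval -0.89 to -0.52, limma adjusted p = 0.274), or 61.4%. The scaled log2 signal of Z00054665-1 was -2.29 ± 0.0129 in WT and -3.06 ± 0.119 in Tabby (SD, n = 2 each). Both probes bind the same transcript sequence from the same RNA, so the pair is a repeat of the measurement and adds no sample. Over 19 settings, Z00054665-1 had log2 differences of -0.86 to -0.49, and over 18 settings its copy had -0.75 to -0.44. Several of these settings alter only the filter, threshold or test and cannot move the difference, and the log ratio rests on the dim reference. With a trend and robust variance, the limma adjusted p was 0.00285 for Z00054665-1 and 0.00433 for Z00070655-1.

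Without overlap between the groups, 32 members were lower in Tabby (15.3%, against 17.4% of all probes tested) and 51 were higher (24.4%, against 14.4%). After normexp correction with loess and Aquantile normalization, 39 were lower (18.7%, against 16% of all probes tested) and 32 higher (15.3%, against 15.6%). In the other settings of the footpad channel more members were higher than lower. Without scaling 38 were higher (18.2%, against 11.1% of all probes tested) and 36 lower (17.2%, against 21.7%). With quantile normalization 57 were higher (27.3%, against 16.1%) and 30 lower (14.4%, against 15.9%). With at least a 1.5-fold difference as well, 2 were lower (0.957%, against 0.711%) and 0 were higher (against 0.278%). Z00006481-1 gave 363.7 and 438.6 units with WT RNA and 262.8 and 278.1 units with Tabby RNA. Z00005856-1 gave 535.7 and 576.0 units with WT RNA and 382.3 and 419.7 units with Tabby RNA. These were the next lower members by p, both without overlap and both under 1.5-fold. Their log2 differences were -0.55 (limma adjusted p = 0.557) and -0.46 (limma adjusted p = 0.505). Higher in Tabby without overlap was Z00056078-1, with 374.5 and 367.5 units with WT RNA and 441.1 and 493.7 units with Tabby RNA. Its log2 difference was 0.35 (SE 0.0871, limma adjusted p = 0.665), the lowest adjusted p among the members that were higher. The groups were close together within themselves in Z00035931-1, which gave 528.6 and 544.4 units with WT RNA and 637.8 and 629.8 units with Tabby RNA (limma adjusted p = 0.679). These 4 probes were chosen after their values were seen.

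At least 1.5-fold lower in Tabby, with or without overlap, were 7 members (3.35%, against 0.855% of all probes tested), and 1 was higher (0.478%, against 0.338%). Normexp correction adds an offset of 50 units, which shrinks folds of dim probes. With it, the lower ones were 0 after quantile normalization (0%, against 0.0809% of all probes tested). After Aquantile normalization 1 was lower (0.478%, against 0.0845%). Besides the identical pair, 4 of the 7 belonged to the group with a difference between replicates that is described next. The remaining one was Z00039743-1, where 1 array set the difference. It gave 285.0 and 210.5 units with WT RNA and 274.4 and 68.0 units with Tabby RNA, so Tabby replicate 3 was close to WT replicate 3. The higher one was Z00070209-1, with 114.6 and 220.9 units with WT RNA and 297.6 and 197.8 units with Tabby RNA, where the low value is that of WT replicate 3. The groups overlapped in both.

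In 10 members the signal was at least 1.5-fold higher in replicate 3 than in replicate 4, in WT and again in Tabby. These were 4.78% of the members, against 0.236% of all probes tested, and 27 of the probes also detected in the reference (0.142%) did so. Under the other scalings and corrections of the footpad channel 9 or 10 members did (4.31% or 4.78%, against 0.134% to 0.25% of all probes tested). In the scanner's log ratio 17 members did (8.13%, against 0.672%). No member (0%, against 0.0458%) had the opposite difference in both groups. This set was picked after the values were seen, and it was not tested. Z00071978-1 gave 3582 and 1618 units on WT arrays 3 and 4, and 2674 and 1053 units on Tabby arrays 3 and 4. Z00036788-1 gave 1257 and 527.8 units with WT RNA, and 931.9 and 331.3 units with Tabby RNA, in the same order. In both, each replicate of Tabby was below the WT replicate of its number, while the groups overlapped.

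Within this set of 10, the largest folds were at the following pair of probes. Z00023077-1 gave 578.3 and 222.8 units on WT arrays 3 and 4, and 391.5 and 109.7 units on Tabby arrays 3 and 4. Z00048600-1 gave 542.6 and 196.0 units with WT RNA, and 369.0 and 96.2 units with Tabby RNA. These folds between the replicates of a genotype exceeded those between the genotypes. The 10 were picked for a fold between replicates, so this follows largely from the choice. Over the 10 members, replicate 3 was 1.63 to 2.76 times as bright as replicate 4 in WT and 1.85 to 3.79 times in Tabby, and the fold was larger in Tabby in all 10. By the group means 9 of the 10 were lower in Tabby, with log2 differences from -0.78 to 0.03 and limma adjusted p-values of at least 0.999952. The choice also widens the spread within a group on which these p-values rest. With the replicate number as a block in the fit, the limma adjusted p-values of the 10 were 0.578 to 0.999923. The log2 differences changed with the arrays used. Leaving out 1 array at a time gave -1.74 (without Tabby replicate 3) to 0.18 (without Tabby replicate 4) for Z00048600-1. For Z00023077-1 the same arrays gave -1.69 and 0.13, for Z00036788-1 -1.27 and 0.20, and for Z00071978-1 -1.17 and 0.16. Leaving out a Tabby array unbalances the replicate numbers, and the 10 were picked for a fold between these, so such swings follow from the choice. Set against the WT array of its number, each Tabby array was lower in these probes. In Z00026015-1 and Z00050912-1, replicate 3 was instead higher in Tabby. The spots of the 10 lay between rows 28 and 516 of 532 and between columns 8 and 83 of 85, so they were not in 1 corner of the array. The others of the 10 were Z00026015-1, Z00026395-1, Z00026122-1, Z00047900-1, Z00073736-1 and Z00050912-1.

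A probe outside the 209 that overlaps one of the 10 in sequence was also brighter in replicate 3. Z00073736-1 shares 43 bases with Z00073023-1, marked in capitals.
Z00073736-1: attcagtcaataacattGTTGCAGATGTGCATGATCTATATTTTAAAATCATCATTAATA
Z00073023-1: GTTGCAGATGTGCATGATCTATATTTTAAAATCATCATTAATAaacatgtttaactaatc
Z00073736-1 gave 676.0 and 303.1 units on WT arrays 3 and 4, and 504.3 and 166.7 units on Tabby arrays 3 and 4. Z00073023-1, whose mean was under 200 units, gave 245.9, 100.8, 164.3 and 44.7 units on the same arrays. Replicate 3 was the brighter in both genotypes on both probes. The labels give no batch, litter or day for the replicate numbers, and their part in the pattern was not tested.

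Several other probes overlap in sequence. The sequence of Z00025860-1 is the same as that of Z00062305-1. The first gave 1599 and 1686 units with WT RNA and 1375 and 1541 units with Tabby RNA, and the second 1381 and 1480 units with WT RNA and 1285 and 1286 units with Tabby RNA. Tabby kept 89.5% and 90.9% of the WT signal on them, without overlap of the groups. Z00014799-1 and Z00064857-1 share 55 bases, and Tabby kept 91.3% and 86.8% of the WT signal on them. Z00058160-1 shares 32 bases with Z00029783-1, a probe outside the 209, and here the Tabby arrays differed in opposite directions. Tabby replicates 3 and 4 gave 203.9 and 241.5 units on the first, and 125.1 and 113.7 units on the second. Z00031171-1 shares 23 bases with Z00055534-1, which gave 20.4 to 38.4 units and was not detected on all arrays. With the identical pairs, the 209 members stand for fewer than 209 separate sequences, and members that share a sequence are no replicates of each other.

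Some members share a stretch of sequence with a probe that was detected in the reference. Z00049259-1 shares 22 bases with Z00025612-1, shown in capitals.
Z00049259-1: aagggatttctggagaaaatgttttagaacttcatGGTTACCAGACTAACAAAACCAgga
Z00025612-1: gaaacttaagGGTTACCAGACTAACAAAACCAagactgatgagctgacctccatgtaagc
Z00025612-1 gave between 343781 and 401906 units in footpad and between 935.6 and 1089 units in the reference. Z00049259-1 itself gave 576.1 and 386.7 units with WT RNA and 532.9 and 467.3 units with Tabby RNA, and it was not detected in the reference on any array. Z00034196-1 shares 35 bases with Z00075224-1, which was well above background in the reference at 19.2 to 25.03 units. Z00034196-1 gave 319.3 and 283.6 units from the WT samples and 312.8 and 295.8 units from the Tabby samples, and 6.80 to 15.3 units from the reference. In this second pair the detection flag thus differed between overlapping probes whose reference signals were both low.

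One member could be placed in the genome from the tables used here. Of the 60 bases of Z00025491-1, 54 match RefSeq's GRCm38.p6 sequence at chr17:25369023-25369076 on the plus strand, marked in capitals.
Z00025491-1: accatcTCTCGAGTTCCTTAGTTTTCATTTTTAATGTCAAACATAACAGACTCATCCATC
The bases in small letters lie beyond the edge of the region searched and were not compared, so the match may be longer. The marked stretch lies 250 to 197 bases before the start of Tpsg1, a mast cell tryptase gene, where 250 is the edge of the search. No RefSeq gene of the table overlaps this stretch. The probe gave 209.9 and 295.4 units with WT RNA and 251.8 and 263.2 units with Tabby RNA, so the Tabby values lay within the range of WT. The remaining 208 members were not placed, because only bases around gene starts and miRNA hairpins were searched, over at least 30 bases, and no member matched a hairpin.

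The sequences of the members were poorer in G and C than those of other probes. Their median GC content was 38.3%, with a range of 25% to 51.7%, against a median of 43.3% for the probes also detected in the reference and for all probes. A GC content above 50% was found in 1 member (0.478%), 21.0% of the probes detected in both RNAs and 21.6% of all probes. Between 200 and 400 units, and again between 400 and 1000 units, the median was 38.3% for members and 45% for probes detected in both RNAs. At 1000 units or more the medians were 36.7% and 43.3%, but there the members were dimmer, with a median signal of 1595 units against 4731 units.

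The poly(A) signal AATAAA, which lies near the end of most messenger RNAs, had another strand pattern in the members. It was found on the given strand of 14 members (6.70%), against 8.76% of the probes detected in both RNAs and 6.93% of all probes. On the opposite strand, where it reads TTTATT, it was found in 18 members (8.61%), against 3.34% and 3.36%. The 18 include the identical Z00025860-1 and Z00062305-1, and Z00014799-1 and Z00064857-1, whose 55 shared bases hold the string. They thus stand for fewer separate sequences, and the identical pair also counts among the members of low GC content below. Of the 12 brightest members 3 hold TTTATT, all among the 4 brightest, and 0 hold AATAAA. Since both letter strings are rich in A and T, the shares were also taken at a GC content of at most 35%. There the given strand held AATAAA in 7 of 86 members (8.14%) and in 16.7% of the probes detected in both RNAs, and the opposite strand in 14 members (16.3%) and 8.32%. Above 35% and up to 45% the opposite strand held it in 3.51% and 3.37%. A match is a string of letters and no proof of a used signal, and these shares were not tested.

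The AU-rich element core ATTTA, a motif found in many unstable messenger RNAs, was on the given strand of 26 members (12.4%), against 7.51% of the probes detected in both RNAs and 7.25% of all probes. On the opposite strand it was also in 26 members (12.4%), against 8.95% and 8.05%. Neither strand was favoured in the members. ATTTA holds only A and T, the members were poorer in G and C, and these shares were not taken within GC ranges or tested. Members with TTTATT kept a median of 100.1% of the WT signal in Tabby, those with AATAAA 104.7% and the other 177 members 102.3%.

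The footpad criteria of the rule were also applied to the arrays of 1 genotype at a time. By the 2 WT arrays alone, 218 probes met the criteria, and by the 2 Tabby arrays alone 211 did, with 205 of the members in each set. Of the 218, 1 was not detected in any Tabby sample, and of the 211, 0 failed on any WT array. That probe was Z00077373-1, which gave 258.9 and 378.8 units with WT RNA and 15.1 and 7.83 units with Tabby RNA, the last values being not well above background. It was found by its detection flags, so its low Tabby values follow from the choice. The share of such probes over the whole array is not given here.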

How the data were processed

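Per the file headers, Agilent Feature Extraction 9.5.1.1 made the deposited intensity values (background-subtracted, dye-normalized signals in each channel) and the log10 ratio. The authors' deposited value table holds log10 values in 25164 rows, with medians of 2.4366, 2.42015, 2.4271 and 2.43015. Its differences between arrays correlated at 0.994 (r, 25138 probes) with those of the log ratio in the scanner files. How each probe's level was set there is not known here, and 143 members have a value in it.

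Footpad signals were taken as log2, minus the 75th percentile of each array. Spots flagged as feature outliers were dropped and spots of a probe averaged. The test took probes detected in footpad on both arrays of a group (28448, of which 28415 had all values) and used limma 3.58.1 in R 4.3.3 (lmFit, eBayes, 2 residual degrees of freedom, Benjamini-Hochberg threshold of 0.05). The script was tested on simulated data. Alternatives changed the scaling, background correction, channel, filter, variance model, replicate block and arrays.

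The members and lists were chosen with earlier results of these data known. Named probes were the 12 brightest, up to 2 per direction of at least 1.5-fold without overlap (2 were lower and 0 higher), and those nearest the signal limit. Others were chosen after their values were seen. The gene lists could not be applied, since no table used here pairs probes with genes. Sequences are those of the deposited files. The number of arrays limits the precision.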

Additional observations from a re-analysis of the deposited data

How the results depend on the processing

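The count of members passing as higher in Tabby was 0 in every setting run. As lower, 0 passed in the reported setting, 1 with normexp, loess and Aquantile, 2 with a trend and robust variance, and 1 when members needed a mean of only 100 units. Over all probes, 7 passed in the reported setting, 3 with quantile normalization, 12 with normexp and quantile normalization, 17 with Aquantile, 84 with a trend and robust variance, 3 among probes detected on all arrays, 1 in the authors' table, and 0 with the scanner's log ratio, without a filter or with the replicate block. With each array left out in turn there were 0 to 2 calls (2 without either WT array, 0 without either Tabby array). The median log2 difference of the members was 0.0320 as reported, -0.0119 with Aquantile, 0.0739 with the scanner's log ratio and 0.0879 in the authors' table. The summed share, -0.0041 as reported, changed sign with quantile normalization (0.0097) and ranged from -0.0560 to 0.0477 when 1 array was left out. The causes were not tested. With 2 pairs the shared replicate numbers do not establish pairing, and the replicate block left 0 members passing. Over members, differences of replicate 3 from 4 in WT and Tabby correlated at r = 0.612, against -0.0132 for probes detected in both RNAs (across probes, which are not independent).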
